A study of Mus musculus with 30 samples.

Results

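The 10 genes described here encode the E2F transcription factors E2f1, E2f2, E2f3, E2f4, E2f5, E2f7 and E2f8 and the pocket proteins Rb1, Rbl1 and Rbl2. They were taken by name from the deposited tables, in which Ensembl identifiers were matched to mouse symbols, and all 10 were among the 12016 genes of the count table and the 55573 genes of the CPM table. CPM is a gene's read count divided by the library's total and set to a common scale. RNA came from 3T3-L1, an established mouse preadipocyte line of fibroblast origin, sub-confluent when a commercial siRNA was added at 50 nM on day −3, counted to the start of differentiation. One set of cells received siRNA against Kdm5c, the gene of an X-linked histone H3 lysine demethylase, and the other a non-targeting siRNA, called scramble here. Both sets were collected on day −2, day −1 and day 0, which is 24, 48 and 72 h after transfection, with 5 libraries in each of the 6 groups and 30 in all. All groups were transfected cells of this 1 line, no untransfected cells were among the samples, and no library came from a day after the start of differentiation.

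E2F factors bind the promoters of genes needed to enter S phase. In cells at rest the pocket proteins bind most of them and hold these promoters silent, and cyclin-dependent kinases release the E2Fs by phosphorylating the pocket proteins. E2f1, E2f2 and E2f3 are known as activators and bind mainly the product of Rb1. E2f4 and E2f5 act mainly as repressors, together with p107 (Rbl1) and p130 (Rbl2), and E2f4 with p130 is part of the DREAM complex of resting cells. E2f7 and E2f8 are atypical repressors that need no pocket protein. When 3T3-L1 cells grow to confluence they stop dividing, and p130 and p107 are known to exchange as the main E2F partner between rest and growth in this line.

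In GRCm38, the activator genes are E2f1 (chr2:154559407-154569892, minus strand), E2f2 (chr4:136172394-136196057, plus strand) and E2f3 (chr13:29906575-29986063, minus strand). The repressor genes that use pocket proteins are E2f4 (chr8:105297663-105305370, plus strand) and E2f5 (chr3:14578641-14606309, plus strand), and the atypical ones E2f7 (chr10:110745439-110787384, plus strand) and E2f8 (chr7:48866429-48881596, minus strand). The pocket protein genes are Rb1 (chr14:73183673-73325822, minus strand), Rbl1 (chr2:157145893-157204534, minus strand) and Rbl2 (chr8:91070057-91123844, plus strand), so that E2f1 and Rbl1 share a chromosome, as do E2f4 and Rbl2.

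The libraries held 25217905 to 33725717 reads. Whether the 5 replicates of a group came from separate cultures is not in the labels, and a p-value therefore speaks of library-to-library spread that may be technical. In bulk RNA, fewer cells that express a gene and less of its RNA per cell cannot be told apart. Kdm5c averaged 25.5 ± 1.29, 35.6 ± 3.57 and 53.3 ± 2.37 CPM on days −2, −1 and 0 in Kdm5c siRNA cells, against 157 ± 1.75, 189 ± 2.91 and 212 ± 4.84 CPM in scramble cells (SD, n = 5). It therefore stood at 16.3, 18.9 and 25.2% of scramble in the fitted model. All 8 fibroblast and preadipocyte markers were present in all 30 libraries, for example Col1a1 at 9340 to 13000 CPM and Dlk1 at 1220 to 2580 CPM. The adipocyte genes Adipoq, Plin1 and Cidec stayed at or below 0.159, 0.143 and 0.181 CPM, where 3 reads would be 0.089 to 0.119 CPM. Of 4 markers of other cell types, Epcam and Myod1 had 0 reads in all 30 libraries, Ptprc had 0 reads in 23 and at most 0.0985 CPM, and the endothelial Pecam1 had reads in all 30, at 0.071 to 0.636 CPM. From day −2 to day 0, 7 of the 8 fibroblast and preadipocyte markers rose and Pparg fell with either siRNA, and their part in the results below was not tested. The mean log2(CPM + 0.5) of 30 E2F target genes, listed below, set some libraries apart. In scramble cells on day −1 it was 6.43 and 6.41 in replicates 4 and 5, against 6.30 to 6.32 in replicates 1 to 3. For scramble day 0 it was 5.61 and 5.55 in replicates 1 and 3, against 5.39 to 5.43 in the other replicates. Kdm5c siRNA replicate 1 of day 0 had 5.68, against 5.49 to 5.56 in the other replicates of its group.

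Because several E2F genes are known to be targets of E2F factors themselves, the promoters of the members were searched for E2F letters. The RefSeq promoter table (GRCm38.p6, 250 bases before to 50 after a start) matched 7 of the 10 members with 9 promoters. E2f4, E2f5 and Rb1 were not in it. The letters TTCCCGC and the variants TTCGCGC or TTGCCGC or, as the last, TTGGCGC were searched on both strands. Some of them can overlap the reverse complement of another, and no matches overlapped in the members. At least 1 match lay in a promoter of 5 members, E2f2, E2f3, E2f7, E2f8 and Rbl1, and in 9.57% of all 32851 promoters of the table. With a further T in front, matches lay in promoters of 4 members and in 2.26% of all promoters. The windows of E2f1 and Rbl2 and the second windows of E2f2 and E2f3 held none. The E2f1 window, chr2:154569377-154569676, lay inside the gene, which begins at 154569892 on the minus strand. Bases before that start were therefore not searched for E2f1. The stretches with matches are shown for these 5 members, with the matched letters in capitals.
E2f2, chr4:136172299-136172323, plus strand: ttggcggcatatagtTTGGCGCtaa
E2f3, chr13:29986024-29986089, minus strand: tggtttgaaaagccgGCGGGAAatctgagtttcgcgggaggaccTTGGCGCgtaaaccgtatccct
E2f7, chr10:110745201-110745368, plus strand: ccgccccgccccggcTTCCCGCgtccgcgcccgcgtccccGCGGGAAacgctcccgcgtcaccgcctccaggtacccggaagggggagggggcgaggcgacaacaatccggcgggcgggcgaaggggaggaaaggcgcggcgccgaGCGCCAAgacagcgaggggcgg
E2f8, chr7:48881686-48881722, minus strand: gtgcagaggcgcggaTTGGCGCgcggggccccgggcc
Rbl1, chr2:157204530-157204566, minus strand: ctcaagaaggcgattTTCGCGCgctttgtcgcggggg

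E2f7 had the most matches, with capitals that begin at −223, −198 and −92 from the start, those at −198 and −92 read on the opposite strand. E2f3 had matches at −11, read on the opposite strand, and at 19, E2f2 at 41, E2f8 at −111 and Rbl1 at −17. The CHR element, the letters TTTGAA or TTCGAA that the DREAM complex is known to use, lay in promoters of 4 members, E2f2, E2f3, E2f8 and Rbl2, and in 19.2% of all promoters. These matches describe letters and are not measured binding sites.

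Per kilobase of merged exons, E2f4 was the most abundant member in each of the 6 groups. Its level on days −2, −1 and 0 was 59.0 ± 2.42, 47.3 ± 1.66 and 39.1 ± 1.83 CPM per kb in Kdm5c siRNA cells, against 59.1 ± 1.52, 45.7 ± 2.25 and 36.0 ± 1.97 CPM per kb in scramble cells (SD, n = 5). E2f1 came next with 18.6, 14 and 11.9 CPM per kb in Kdm5c siRNA cells, against 20.4, 14.4 and 12 CPM per kb in scramble cells, followed by E2f3. The ranges of these 3 genes and of the next gene did not overlap, apart from E2f3 and E2f5 on day −2 in Kdm5c siRNA cells. E2f2 was lowest in all 6 groups, at 0.731, 0.695 and 0.487 CPM per kb with Kdm5c siRNA, against 0.860, 0.760 and 0.536 CPM per kb with scramble.

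The middle of this order changed with the day. On day −2, E2f5, E2f7, E2f8 and Rbl1 followed each other at 8.28, 7.26, 6.37 and 5.33 CPM per kb in Kdm5c siRNA cells, against 6.69, 6.68, 6.50 and 6.12 CPM per kb in scramble cells. In scramble cells the ranges of these 4 neighbours overlapped. By day 0, Rbl2 stood next after E2f3, at 4.41 CPM per kb with Kdm5c siRNA, against 4.91 CPM per kb with scramble. E2f7 stood ahead of E2f2 alone, at 2 CPM per kb with Kdm5c siRNA, against 1.71 CPM per kb with scramble. Rb1 was the lowest of the 3 pocket protein genes on each day, at 1.5, 2.24 and 2.68 CPM per kb with Kdm5c siRNA, against 1.51, 2.20 and 2.76 CPM per kb with scramble.

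As shares of the summed level of the 7 E2F genes per kb, E2f4 and E2f5 together held 61.7, 62.4 and 64.8% on days −2, −1 and 0 in Kdm5c siRNA cells, against 59.8, 61.1 and 63.1% in scramble cells. The activators E2f1, E2f2 and E2f3 held 25.8, 25.3 and 27.1% with Kdm5c siRNA, against 28.2, 27.2 and 29.5% with scramble. E2f7 and E2f8 held 12.5, 12.2 and 8.08% with Kdm5c siRNA, against 12, 11.8 and 7.42% with scramble. The atypical pair thus lost share by day 0 with either siRNA. The summed level of the 7 genes was 109, 84.8 and 66.5 CPM per kb in Kdm5c siRNA cells, against 110, 82.4 and 62.8 CPM per kb in scramble cells.

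**Figure D1:**
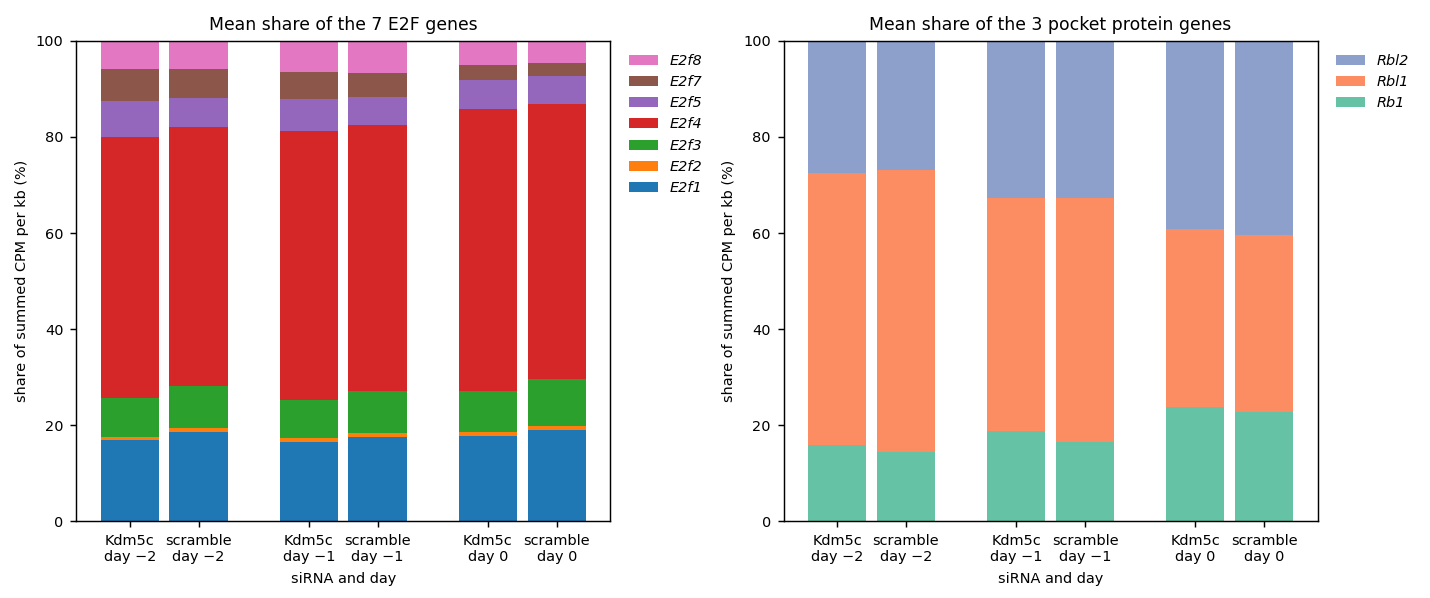
Stacked bars give the mean share of each gene in the summed CPM per kb of the 7 E2F genes (left) and of the 3 pocket protein genes (right), in percent, by siRNA and day (5 libraries a bar). E2f4 fills between 53.8 and 58.8% of each left bar, and Rbl2 takes a larger part of the right bars on day 0 than on day −2.

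In mean level per kb, Rbl1 and Rbl2 changed places by day 0, and the size of their ratio depends on the exon lengths used. Rbl1 held 56.5, 48.4 and 37.0% of the summed CPM per kb of the 3 genes on days −2, −1 and 0 with Kdm5c siRNA, against 58.7, 50.6 and 36.8% with scramble. Rbl2 held 27.5, 32.8 and 39.2% with Kdm5c siRNA, against 26.8, 32.8 and 40.5% with scramble. The ratio of Rbl2 to Rbl1 per kb was 0.488 ± 0.0418, 0.678 ± 0.0302 and 1.06 ± 0.0766 in Kdm5c siRNA cells, against 0.457 ± 0.0228, 0.651 ± 0.0633 and 1.11 ± 0.101 in scramble cells (SD, n = 5). It lay near 1 on day 0, where the ranges of both genes overlapped, and was below 1 in every library of the earlier days. The summed level of the 3 pocket protein genes was 9.43, 11.9 and 11.3 CPM per kb in Kdm5c siRNA cells, against 10.4, 13.2 and 12.1 CPM per kb in scramble cells.

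The first question the design asks of these genes is how they changed from day −2 to day 0. Time since transfection and time in culture rose together in every group and cannot be told apart. Between day −2 and day 0, 8 of the 10 members fell and 2, Rb1 and Rbl2, rose, in Kdm5c siRNA cells and in scramble cells alike. Of all 12016 genes, 43.8% were called higher and 43.6% lower over these days with Kdm5c siRNA, and 44.6% higher and 43.6% lower with scramble. Calls here and below rest on edgeR's quasi-likelihood test and need an adjusted p below 0.05 (Benjamini-Hochberg, over the 12016 genes). The median log2 fold change was −0.65 over the members and 0.00 over all genes with Kdm5c siRNA, and −0.74 and 0.00 with scramble. CPM is relative to the library, so none of these values is an amount of RNA per cell.

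**Figure D2:**
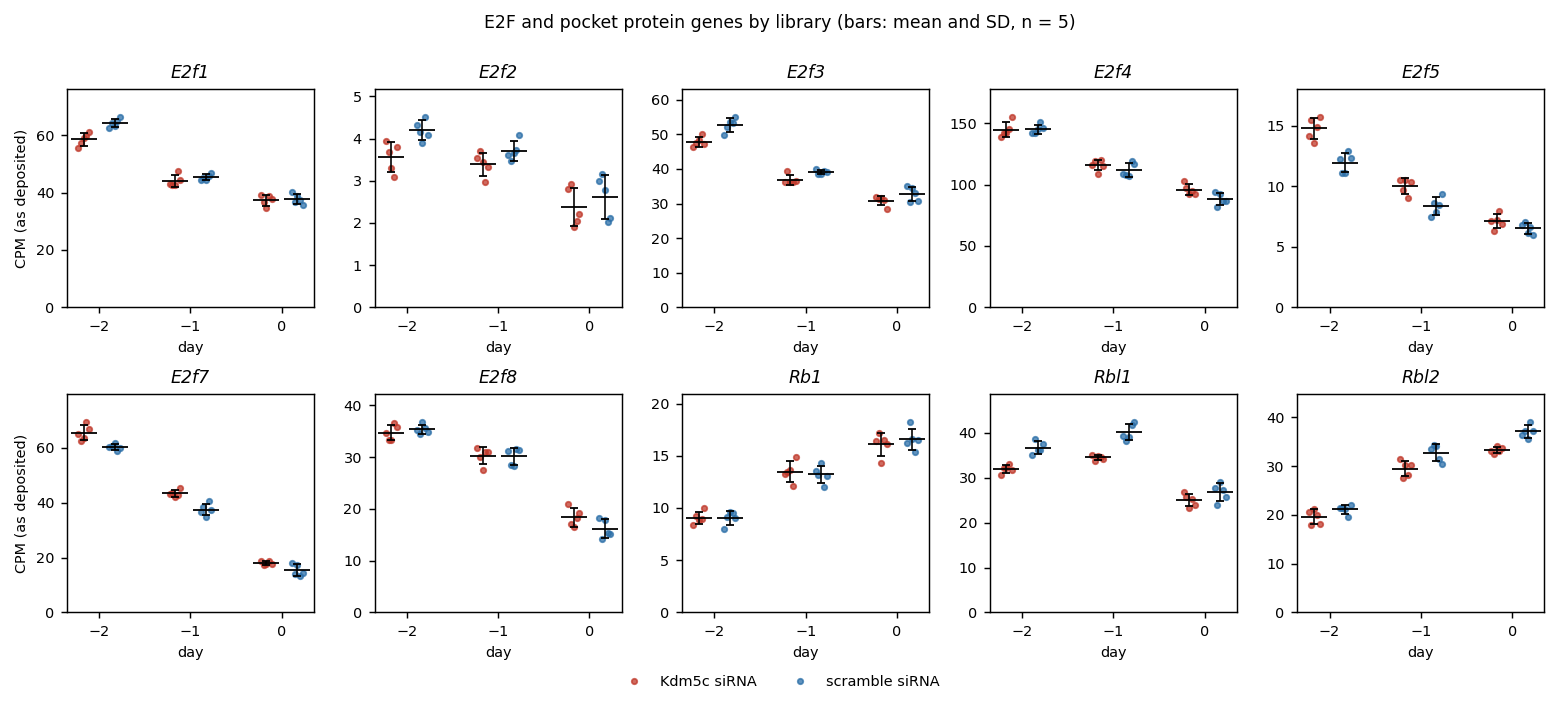
Each panel plots the CPM of 1 gene by day, with a point per library, Kdm5c siRNA left of scramble, and a bar for the mean and SD of 5 libraries. The points of 8 genes are lower on day 0 than on day −2, those of Rb1 and Rbl2 are higher, and Rbl1 is lowest on day 0 without having fallen by day −1.

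E2f7, an atypical repressor of E2F target genes that is itself most abundant during S phase, fell most. It averaged 65.4 ± 2.67, 43.3 ± 1.19 and 18 ± 0.669 CPM on days −2, −1 and 0 in Kdm5c siRNA cells, against 60.2 ± 1.03, 37.5 ± 2.07 and 15.4 ± 2.08 CPM in scramble cells (SD, n = 5). On day 0 it stood at 26.9% of day −2 with Kdm5c siRNA (log2 fold change −1.90, SE 0.05, adjusted p = 1.35e-27) and at 24.9% with scramble (−2.01, SE 0.05, adjusted p = 4.78e-28). No library of a later day overlapped with one of an earlier day. E2f7 also carried the most E2F letters in the promoters printed above, and whether these bear on its fall was not tested.

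Its close relative E2f8 averaged 34.7 ± 1.45, 30.2 ± 1.65 and 18.4 ± 1.80 CPM on days −2, −1 and 0 with Kdm5c siRNA, against 35.4 ± 0.877, 30.1 ± 1.69 and 16.2 ± 1.76 CPM with scramble (SD, n = 5). The fall over both days was 0.96 on the log2 scale with Kdm5c siRNA (SE 0.06, adjusted p = 2.23e-17) and 1.17 with scramble (SE 0.06, adjusted p = 9.94e-20). Most of it came in the second step. By day −1, E2f8 had made 28.5% of its log2 change with Kdm5c siRNA and 26% with scramble, and E2f7 35.2 and 37.7%.

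Among the activators, E2f1 averaged 58.6 ± 2.21, 44.1 ± 2.10 and 37.4 ± 1.92 CPM on days −2, −1 and 0 in Kdm5c siRNA cells, against 64.4 ± 1.51, 45.4 ± 1.02 and 37.8 ± 1.74 CPM in scramble cells (SD, n = 5). It fell by 0.69 on the log2 scale over both days with Kdm5c siRNA (SE 0.03, adjusted p = 4.4e-19) and by 0.81 with scramble (SE 0.03, adjusted p = 2.78e-21). Unlike E2f7 and E2f8 it made most of this change, 70.4 and 71.3%, by day −1. E2f3 averaged 47.9 ± 1.46, 36.9 ± 1.41 and 30.9 ± 1.37 CPM with Kdm5c siRNA, against 52.8 ± 1.93, 39.1 ± 0.678 and 32.7 ± 2.09 CPM with scramble (SD, n = 5). Its fall was 0.67 with Kdm5c siRNA and 0.73 with scramble on the log2 scale, of which 67.0 and 69.5% came by day −1. For both genes the libraries of the 3 days did not overlap.

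E2f2 was the least abundant member, at 3.57 ± 0.358, 3.39 ± 0.273 and 2.38 ± 0.461 CPM on days −2, −1 and 0 with Kdm5c siRNA, against 4.2 ± 0.233, 3.71 ± 0.231 and 2.62 ± 0.518 CPM with scramble (SD, n = 5). It fell by 0.62 on the log2 scale over both days with Kdm5c siRNA (SE 0.11, adjusted p = 7.71e-06) and by 0.72 with scramble (SE 0.11, adjusted p = 2.35e-07). Day −1 overlapped with day −2 for either siRNA. The call for the first step in scramble cells (log2 fold change −0.25, adjusted p = 0.0256) was lost with limma, with upper-quartile scaling and with no scaling factors. It was also lost without day −2 replicate 4 (adjusted p = 0.0607) or day −1 replicate 2 (adjusted p = 0.0571), or without day −1 replicates 1, 2 and 3 together (adjusted p = 0.256).

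E2f4, the repressor that pairs with p130 in resting cells, averaged 145 ± 5.92, 116 ± 4.08 and 95.9 ± 4.50 CPM on days −2, −1 and 0 in Kdm5c siRNA cells, against 145 ± 3.72, 112 ± 5.53 and 88.2 ± 4.82 CPM in scramble cells (SD, n = 5). It fell by 0.63 on the log2 scale with Kdm5c siRNA (SE 0.04, adjusted p = 4.72e-18) and by 0.75 with scramble (SE 0.04, adjusted p = 3.15e-20). Its libraries did not overlap between days. E2f5 fell further, by 1.09 with Kdm5c siRNA (SE 0.06, adjusted p = 3.3e-17) and by 0.91 with scramble (SE 0.07, adjusted p = 1.53e-14). It averaged 14.7 ± 0.918, 10 ± 0.65 and 7.10 ± 0.584 CPM with Kdm5c siRNA, against 11.9 ± 0.816, 8.33 ± 0.727 and 6.51 ± 0.450 CPM with scramble (SD, n = 5).

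Rbl2, the gene of p130, rose. It averaged 19.6 ± 1.51, 29.5 ± 1.62 and 33.3 ± 0.610 CPM on days −2, −1 and 0 with Kdm5c siRNA, against 21.1 ± 0.941, 32.8 ± 1.76 and 37.1 ± 1.23 CPM with scramble (SD, n = 5). On day 0 it stood at 165% of day −2 in Kdm5c siRNA cells (log2 fold change 0.72, SE 0.05, adjusted p = 2.48e-16) and at 171% in scramble cells (0.77, SE 0.04, adjusted p = 1.67e-17). Of this log2 change, 70.8% came by day −1 with Kdm5c siRNA and 72.3% with scramble. The Aktip gene shares 693 exon bases with Rbl2 on the opposite strand and averaged 20.6, 27.5 and 30 CPM with Kdm5c siRNA, against 18.7, 25.2 and 27.7 CPM with scramble. The kit kept strand, but whether the counting used it is not given in the sources used here, so reads of the shared stretch cannot be told apart.

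Rb1, the gene of the retinoblastoma protein, also rose, at 9.05 ± 0.594, 13.5 ± 0.966 and 16.1 ± 1.06 CPM on days −2, −1 and 0 with Kdm5c siRNA, against 9.05 ± 0.653, 13.2 ± 0.835 and 16.6 ± 1.05 CPM with scramble (SD, n = 5). Its log2 fold change over both days was 0.79 with Kdm5c siRNA (SE 0.06, adjusted p = 6.56e-14) and 0.83 with scramble (SE 0.06, adjusted p = 1.23e-14). Lpar6 and Rcbtb2 share 408 and 488 exon bases with it on the opposite strand. Rcbtb2 was more abundant than Rb1 in CPM, at 37.1, 41.1 and 36.5 CPM on days −2, −1 and 0 with Kdm5c siRNA, against 36.5, 40.5 and 37.9 CPM with scramble. Lpar6 averaged 10.3, 5.37 and 4.54 CPM with Kdm5c siRNA, against 8.73, 4.47 and 5.73 CPM with scramble. As for Rbl2, reads of the shared stretches cannot be told apart, and how much of the Rb1 values they hold was not tested. Day −1 and day 0 overlapped in Kdm5c siRNA cells, where they held 12.1 to 14.9 CPM on day −1 and 14.3 to 17.2 CPM on day 0.

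Rbl1, the gene of p107, moved late. It averaged 31.9 ± 0.915, 34.5 ± 0.535 and 25 ± 1.4 CPM on days −2, −1 and 0 with Kdm5c siRNA, against 36.7 ± 1.39, 40.1 ± 1.82 and 26.7 ± 1.98 CPM with scramble (SD, n = 5). The first step gave a log2 fold change of 0.04 with Kdm5c siRNA (adjusted p = 0.425) and of 0.05 with scramble (adjusted p = 0.202), neither called. With upper-quartile scaling both became calls, at 0.09 and 0.12, as they did with no scaling factors and with limma. The first step in scramble cells was also called without day −1 replicates 1, 2 and 3 together (0.12, adjusted p = 0.0278). In CPM, day −1 lay above day −2 without overlap in Kdm5c siRNA cells and overlapped with it in scramble cells. The second step was a fall of 0.43 with Kdm5c siRNA (SE 0.04, adjusted p = 3.29e-11) and of 0.55 with scramble (SE 0.04, adjusted p = 4.64e-14).

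**Figure D3:**
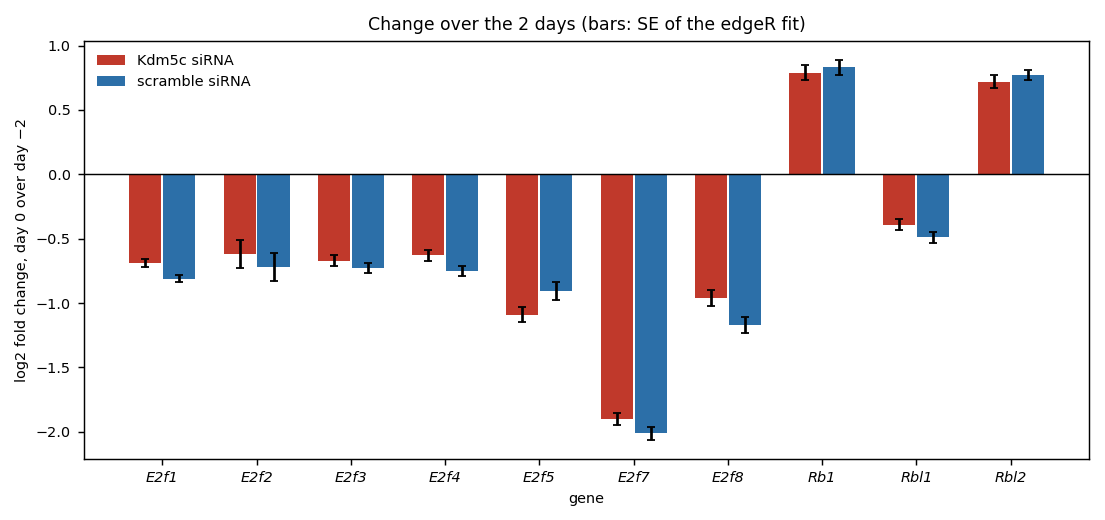
Bars give the log2 fold change of day 0 over day −2 for each member, Kdm5c siRNA left of scramble, with the SE of the edgeR fit. E2f7 reaches −1.90 and −2.01, only Rb1 and Rbl2 lie above 0, and the bar of Kdm5c siRNA is the shorter one for every member but E2f5. The main edgeR fit called no member for the difference between its bars.

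The separate steps followed the same division. From day −2 to day −1, 2 members rose and 6 fell with Kdm5c siRNA, where 38.2% of all genes were called higher and 38.5% lower. In scramble cells 2 rose and 7 fell over that step, where 39.5% of all genes were called higher and 39.4% lower. From day −1 to day 0, 2 members rose and 8 fell with either siRNA. The shares of all genes called in that step were 36.6% higher and 38.1% lower with Kdm5c siRNA, and 36.8% higher and 37.9% lower with scramble. Rb1 and Rbl2 were the members that rose in both steps.

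The second question is how these genes differed between Kdm5c siRNA and scramble cells on a given day. No sample had another siRNA treatment against Kdm5c or a rescue. Loss of Kdm5c therefore cannot be told apart from other effects of this siRNA. Each called difference was smaller in size than the change of the same gene from day −2 to day 0. For Rbl1 the called differences were larger than its change from day −2 to day −1, which was not called with either siRNA. Of the called ones, E2f5 on day −2 was furthest from 1 at 124% of scramble, and Rbl1 on day −1 was lowest at 86.2%. On day −2, 2 members were higher and 3 lower in Kdm5c siRNA cells than in scramble cells, where 11.3% of all genes were called higher and 11.9% lower. On day −1, 2 were higher and 2 lower, where 18.8% of all genes were called higher and 16.8% lower. On day 0, 3 were higher and 1 lower, where 19.3% of all genes were called higher and 16.2% lower. The median log2 fold change over the members was −0.06, −0.02 and −0.02 on days −2, −1 and 0, and 0.00 over all genes on each day.

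**Figure D4:**
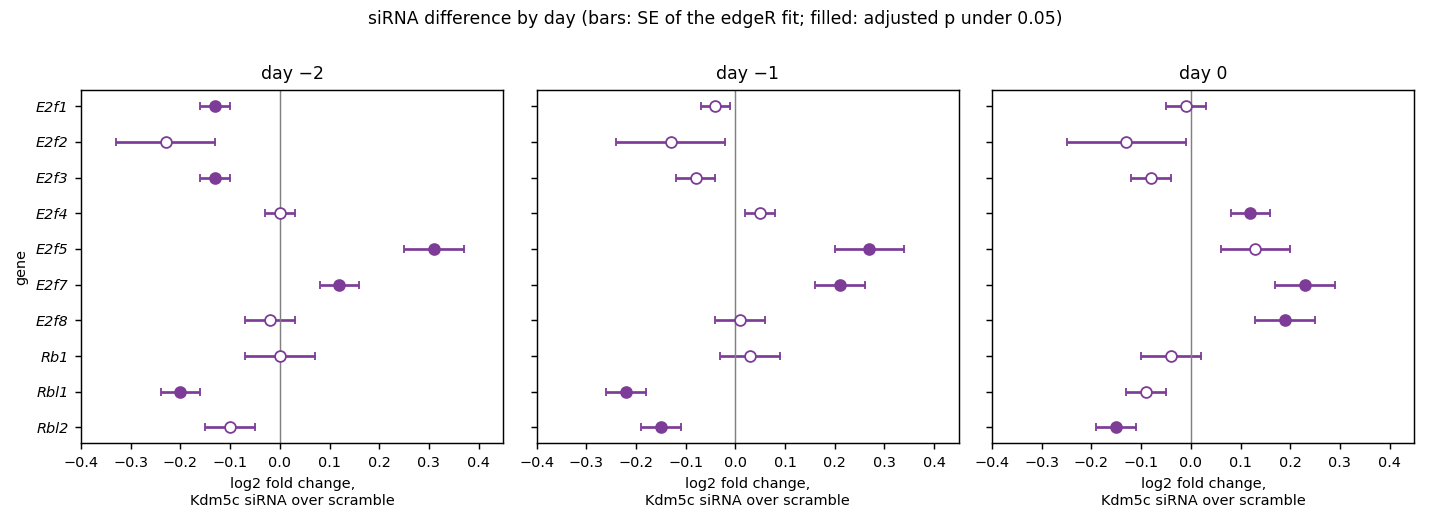
Points give the log2 fold change of Kdm5c siRNA over scramble for each member on each day, with the SE of the edgeR fit, and filled points have an adjusted p under 0.05. E2f7 lies right of 0 on all 3 days with filled points, and Rbl1 and Rbl2 lie left of 0 on all 3 days.

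E2f7 was the only member called on each of the 3 days, each time higher with Kdm5c siRNA. On day −2 it had 64.9, 62.5, 63.5, 69.2 and 66.8 CPM in Kdm5c siRNA libraries, against 60.2, 60.5, 61.6, 58.8 and 59.9 CPM in scramble libraries. A day later it had 43.1, 43.4, 42.1, 42.8 and 45.3 CPM with Kdm5c siRNA, against 36.4, 38.3, 34.8, 40.4 and 37.4 CPM with scramble. On both days all 5 Kdm5c siRNA libraries lay above all 5 scramble libraries (two-sided exact permutation test, p = 0.0079, the smallest that 5 against 5 allow). Day 0 gave 18.8, 17.4, 17.8, 18.7 and 17.5 CPM with Kdm5c siRNA, against 18, 14, 17.2, 13.3 and 14.3 CPM with scramble, and scramble replicate 1 lay within the range of the other group (exact permutation test, p = 0.0397).

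In the edgeR fit E2f7 was higher with Kdm5c siRNA by 0.12, 0.21 and 0.23 on the log2 scale on days −2, −1 and 0 (SE 0.04, 0.05 and 0.06; adjusted p = 0.0331, 0.000367 and 0.00148). The call on day −2 was lost with limma (adjusted p = 0.0913 to 0.112). It was also lost without scramble replicate 1, 2, 4 or 5 or Kdm5c siRNA replicate 4 or 5 (adjusted p = 0.051 to 0.105). On day −1 it was lost without scramble replicates 1, 2 and 3 together, at 0.16 and an adjusted p of 0.0569; these 3 libraries were chosen from earlier results of these data.

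E2f8 was called on day 0, with 20.9, 17.1, 16.4, 18.2 and 19.2 CPM in Kdm5c siRNA libraries, against 18.2, 14.2, 17.9, 15.4 and 15.2 CPM in scramble libraries. Scramble replicates 1 and 3 lay within the Kdm5c siRNA range, and these were also the scramble libraries of that day with the highest E2F target level. Kdm5c siRNA replicate 1, the highest for E2f8, likewise had the highest target level of its group. The two-sided exact permutation test of the E2f8 values gave p = 0.0714. In the edgeR fit the log2 fold change was 0.19 (SE 0.06, adjusted p = 0.0158), and the call was lost without scramble replicate 2 (adjusted p = 0.0673) or Kdm5c siRNA replicate 1 (adjusted p = 0.0862), and with only the libraries of that day in the fit (adjusted p = 0.0641). On days −2 and −1 the log2 fold change was −0.02 and 0.01, not called. Gm2788, which shares 610 exon bases with E2f8 on the opposite strand, averaged at most 0.627 CPM in a group.

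E2f5, a repressor that binds p107 and p130, was higher with Kdm5c siRNA on the first days. On day −2 it had 14.1, 15.5, 13.6, 14.9 and 15.7 CPM in Kdm5c siRNA libraries, against 12.2, 11.1, 11.1, 12.9 and 12.3 CPM in scramble libraries, with no overlap (two-sided exact permutation test, p = 0.0079). The log2 fold change was 0.31 (SE 0.06, adjusted p = 0.000188). On day −1 it had 10.5, 9.72, 10.5, 9.05 and 10.3 CPM with Kdm5c siRNA, against 7.43, 8.59, 7.87, 8.44 and 9.34 CPM with scramble, where scramble replicate 5 lay above 1 Kdm5c siRNA library (exact permutation test, p = 0.0159). The value there was 0.27 (SE 0.07, adjusted p = 0.00158), or 0.18 without scramble replicates 1, 2 and 3 together (adjusted p = 0.148). By day 0 it was 0.13 and not called (adjusted p = 0.182, 95% interval −0.02 to 0.28). The gene 1810022K09Rik shares 26 exon bases with E2f5 on the opposite strand and was not called on any day.

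E2f4 was called on day 0 alone, with 103, 97.1, 92.5, 94.8 and 92.0 CPM in Kdm5c siRNA libraries, against 93.8, 81.8, 92.2, 86.5 and 86.7 CPM in scramble libraries. Scramble replicates 1 and 3 again lay within the range of the other group (exact permutation test, p = 0.0397). Its log2 fold change was 0.12 (SE 0.04, adjusted p = 0.00696), after 0.00 on day −2 (95% interval −0.07 to 0.07) and 0.05 on day −1 (95% interval −0.02 to 0.12).

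Of the activators, E2f1 and E2f3 were lower with Kdm5c siRNA on day −2. E2f1 had 55.5, 57.4, 59.1, 59.8 and 61.2 CPM in Kdm5c siRNA libraries, against 62.6, 64.5, 63.2, 65.0 and 66.4 CPM in scramble libraries, with no overlap (two-sided exact permutation test, p = 0.0079). E2f3 had 46.3, 47.4, 48.4, 50.1 and 47.2 CPM with Kdm5c siRNA, against 49.8, 52.2, 53.5, 53.3 and 55.0 CPM with scramble, and overlapped in 1 library of each group (p = 0.0159 in the same exact test). Both had a log2 fold change of −0.13 (SE 0.03), with an adjusted p of 0.00369 for E2f1 and 0.00397 for E2f3. Neither was called on the later days. E2f1 was at −0.04 and −0.01 (adjusted p = 0.416 and 0.855), and E2f3 at −0.08 on both days (adjusted p = 0.0769 and 0.0867).

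E2f3 became a call on day −1 without Kdm5c siRNA replicate 2 (adjusted p = 0.03) and with upper-quartile scaling (adjusted p = 0.0497), and on day 0 without scramble replicate 2 (adjusted p = 0.0288) or 5 (adjusted p = 0.0403). E2f2 was at −0.23, −0.13 and −0.13 on days −2, −1 and 0 and was not called, with 95% intervals of −0.44 to −0.02, −0.34 to 0.09 and −0.37 to 0.12. At 2 to 5 CPM its intervals were the widest among the members.

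Rbl1 was lower with Kdm5c siRNA on days −2 and −1. On day −2 it had 30.6, 32.1, 32.2, 33.1 and 31.7 CPM in Kdm5c siRNA libraries, against 35.1, 38.7, 36.1, 36.1 and 37.5 CPM in scramble libraries. A day later it had 35.1, 33.7, 34.9, 34.6 and 34.2 CPM with Kdm5c siRNA, against 39.2, 38.2, 39.0, 41.7 and 42.3 CPM with scramble. All 5 Kdm5c siRNA libraries lay below all 5 scramble libraries on both days (two-sided exact permutation test, p = 0.0079). In the edgeR fit it was at −0.20 on day −2 (SE 0.04, adjusted p = 0.000434) and at −0.22 on day −1 (SE 0.04, adjusted p = 5.2e-05). The day −1 call held without scramble replicates 1, 2 and 3 together (adjusted p = 8.91e-05). On day 0 it was −0.09 and not called (adjusted p = 0.0844), though it became a call without scramble replicate 2 (adjusted p = 0.0162) or Kdm5c siRNA replicate 1 (adjusted p = 0.0368).

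Rbl2 was lower with Kdm5c siRNA on days −1 and 0. On day 0 it had 33.1, 32.5, 34.1, 33.2 and 33.8 CPM in Kdm5c siRNA libraries, against 36.5, 37.3, 35.6, 39.0 and 37.2 CPM in scramble libraries, with no overlap (two-sided exact permutation test, p = 0.0079). Day −1 gave 31.4, 27.5, 30.3, 28.2 and 30.2 CPM with Kdm5c siRNA, against 33.5, 34.4, 34.1, 31.5 and 30.4 CPM with scramble, where scramble replicate 5 lay within the other range (exact permutation test, p = 0.0159). The log2 fold change was −0.15 on both days (SE 0.04; adjusted p = 0.00718 on day −1 and 0.0051 on day 0). On day −1 it was −0.07 without scramble replicates 1, 2 and 3 together (adjusted p = 0.428), and on day −2 it was −0.10 (adjusted p = 0.127).

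Aktip, which overlaps Rbl2 on the opposite strand, had the other sign on each day, at 0.14, 0.13 and 0.12 (adjusted p = 0.0317, 0.0253 and 0.032). Rb1 was at 0.00, 0.03 and −0.04 on days −2, −1 and 0 and was not called, with 95% intervals of −0.13 to 0.14, −0.09 to 0.15 and −0.15 to 0.08. Lpar6, which overlaps it on the opposite strand, was called on all 3 days, at 0.25, 0.27 and −0.33, and Rcbtb2 on none.

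The third question is whether the siRNA difference itself changed with the day. In the main edgeR fit, 0 of the 10 members were called in each of the 3 tests of this difference. Of all genes 3.56% were called for day −1 minus day −2 and 5.87% for day 0 minus day −1. For day 0 minus day −2 the share was 16.1%. At an unadjusted p under 0.05 the counts were 0, 2 and 3 members. The differences of day 0 minus day −2 furthest from 0 were 0.21 for E2f8 (SE 0.08, adjusted p = 0.0692), −0.19 for E2f5 (SE 0.09, adjusted p = 0.19), 0.12 for E2f4 (SE 0.05, adjusted p = 0.0915) and 0.12 for E2f1 (SE 0.05, adjusted p = 0.0919). E2f8 was called with DESeq2 (adjusted p = 0.0465), with no filter on low counts (adjusted p = 0.0371) and with a replicate block (adjusted p = 0.0422).

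Leaving out 1 library moved this count as well. E2f8, E2f1 and E2f4 were called without scramble day 0 replicate 1 (adjusted p = 0.0223, 0.0445 and 0.0421). E2f8 and E2f1 were called without Kdm5c siRNA day 0 replicate 3 (adjusted p = 0.0305 and 0.0338), E2f8 without scramble day 0 replicate 3 (adjusted p = 0.035), and E2f4 without Kdm5c siRNA day −2 replicate 5 (adjusted p = 0.0387). Put as the change from day −2 to day 0, the log2 change in Kdm5c siRNA cells was the smaller in size for 9 of the 10 members, at 79.5 to 95% of that in scramble cells, and for E2f5 it was 121% of it. These 2 changes share no libraries, but the 9 members were not independent of each other. The main edgeR fit called none of these differences between siRNAs. The share of all genes with a smaller change in Kdm5c siRNA cells is not given here.

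Around the members stand the genes that activate, bind or obey them, grouped here in lists written from textbook knowledge. All 30 listed E2F targets of the G1 to S step fell between day −2 and day 0 with either siRNA, where 43.6% of all genes were called lower. The median log2 fold change over the targets was −1.19 in Kdm5c siRNA cells and −1.36 in scramble cells. Rrm2, a subunit of ribonucleotide reductase, averaged 333, 156 and 56.8 CPM on days −2, −1 and 0 with Kdm5c siRNA, against 332, 148 and 52.7 CPM with scramble. The fall was 2.59 on the log2 scale with Kdm5c siRNA and 2.69 with scramble (adjusted p = 1.82e-31 and 7.06e-32). Its partner Rrm1 fell by 1.37 and 1.43, and Cdc25a, the phosphatase that activates Cdk2, by 1.68 and 1.77. Over the same days E2f1 fell by 0.69 and 0.81.

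Between siRNAs the direction of the called E2F targets differed between days. On day −2, 1 of the 30 was higher and 9 were lower with Kdm5c siRNA, with a median log2 fold change of −0.06, where 11.3% of all genes were higher and 11.9% lower. On day −1, 1 was higher and 4 lower, where 18.8% of all genes were higher and 16.8% lower. On day 0, 10 were higher and 1 lower, with a median of 0.07, where 19.3% of all genes were higher and 16.2% lower. Among those lower on day −2 were Uhrf1, which recruits the maintenance DNA methyltransferase (−0.26, adjusted p = 2.11e-06), and Slbp, which binds histone mRNA (−0.11, adjusted p = 0.00585). Cdc25a was higher on all 3 days, by 0.13, 0.23 and 0.22. On day 0 Dnmt1 (0.15, adjusted p = 0.000144) and the replication factor Cdc45 (0.23, adjusted p = 0.0011) were higher as well.

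The test of the change in difference from day −2 to day 0 called 12 of the 30 targets, all 12 towards higher with Kdm5c siRNA. Of all genes 16.1% were called in this test, 61.7% of them in that direction. The median over the targets was 0.14 and that over all genes 0.01, with Uhrf1 (0.33, adjusted p = 4.68e-05) and Chaf1a (0.29, adjusted p = 0.000402) in front. Without scramble day 0 replicate 1, which held the highest target level of its group, these counts were 19 of 30 for the change and 17 higher for day 0. Over all fits without 1 library, the count higher on day 0 ranged from 8 to 17. It was 9 with only the libraries of day 0 in the fit. On day −1, 3 targets in place of 1 were higher without scramble replicate 4, and 2 without scramble replicate 5 or Kdm5c siRNA replicate 3, while 8 in place of 4 were lower without scramble replicates 1, 2 and 3 together. With only the libraries of day −2 in the fit, 14 in place of 9 were lower on that day. The members E2f7 and E2f8 and these targets share the day and the libraries, and which of them moved the other was not tested.

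Of the 10 cyclins and kinases that phosphorylate pocket proteins, all 10 fell between day −2 and day 0 with either siRNA, where 43.6% of all genes were called lower. Their median was −0.98 in Kdm5c siRNA cells and −1.21 in scramble cells. Cdk1 was at −1.53 with Kdm5c siRNA and −1.73 with scramble, cyclin A2 (Ccna2) at −1.63 and −1.75, and cyclin E1 (Ccne1) at −1.39 and −1.69. Between siRNAs 2 were higher and 3 lower on day −2, 4 higher and 1 lower on day −1, and 7 higher and 1 lower on day 0. Of all genes 11.3, 18.8 and 19.3% were higher and 11.9, 16.8 and 16.2% lower on these days, so that 1 of 10 lower is not above the share of all genes. Cyclin D2 (Ccnd2), which activates Cdk4 and Cdk6, was higher with Kdm5c siRNA on each day, at 1490, 1530 and 1480 CPM, against 1280, 1190 and 1220 CPM with scramble. Its log2 fold changes were 0.22, 0.37 and 0.28 (adjusted p = 9.67e-10, 1.36e-15 and 2.03e-12). Cyclin D1 (Ccnd1) was higher on days −1 and 0, by 0.36 and 0.41 (adjusted p = 1.14e-09 and 1.07e-10). Cdk4 was lower on each day, by −0.09, −0.09 and −0.07. On day −2, 4 in place of 2 were higher with only the libraries of that day in the fit.

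Inhibitors of these kinases went the other way with time. Of the 7 listed, Cdkn1c was not in the count table. Of the other 6, 5 rose and 1, Cdkn2d, fell between day −2 and day 0 with either siRNA. Their median was 0.69 with Kdm5c siRNA and 0.77 with scramble. Of all genes 43.8% were called higher with Kdm5c siRNA and 44.6% with scramble, and 43.6% lower with either. Cdkn1a, the gene of p21, averaged 115, 191 and 274 CPM on days −2, −1 and 0 with Kdm5c siRNA, against 109, 185 and 261 CPM with scramble. It rose by 1.21 with Kdm5c siRNA and by 1.22 with scramble on the log2 scale (adjusted p = 1.98e-28 and 1.23e-28), and Cdkn2a by 1.03 and 0.95. Between siRNAs 2 were higher and 3 lower on day −2, 1 higher and 3 lower on day −1, and 2 higher and 2 lower on day 0. The shares of all genes were 11.3% higher and 11.9% lower, 18.8% and 16.8%, and 19.3% and 16.2%, and the 1 of 6 higher on day −1 is near its share. Cdkn2b was higher on all 3 days, by 0.11, 0.25 and 0.13, and Cdkn2c lower on all 3, by −0.17, −0.20 and −0.21. The 2 higher on day −2 were 0 without scramble replicate 3 or without Kdm5c siRNA replicate 2, and 1 without scramble replicate 4 or Kdm5c siRNA replicate 1, 4 or 5. On day 0, 1 in place of 2 was higher without scramble replicate 1, 2 or 3 or Kdm5c siRNA replicate 1, 2, 3 or 5. In the other direction, 1 in place of 2 was lower on day 0 without scramble replicate 2 or 5 or Kdm5c siRNA replicate 1, 2 or 3, and 0 in place of 3 were lower on day −1 without scramble replicates 1, 2 and 3 together.

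Of the 10 E2F partners and DREAM or MuvB genes, 2 rose and 8 fell between day −2 and day 0 in scramble cells. In Kdm5c siRNA cells 0 rose and 8 fell. The share of all genes called higher was 43.8% with Kdm5c siRNA and 44.6% with scramble, and lower 43.6% with either. The genes called higher in scramble cells were Lin37 and Lin52 of the MuvB core, at 0.14 and 0.12 in Kdm5c siRNA cells (adjusted p = 0.0504 and 0.0838), against 0.25 and 0.14 in scramble cells (adjusted p = 0.000889 and 0.0424). Neither was called in the test of the difference (adjusted p = 0.503 and 0.908). With upper-quartile scaling, no scaling factors, limma or the stricter filter, 2 were called higher in Kdm5c siRNA cells, and 1 with only the libraries of the contrast or without day −2 replicate 1 or 3 or day 0 replicate 2 or 5. In scramble cells 1 was called higher with DESeq2, with no filter or edgeR's own filter, with only the libraries of the contrast, and without day −2 replicate 2 or 5 or day 0 replicate 2, 3 or 4. Foxm1, which joins the MuvB core at genes of mitosis, fell by 1.58 with Kdm5c siRNA and by 1.79 with scramble, and Mybl2 by 2.15 and 2.21. Tfdp1 encodes DP1, a partner with which E2f1 to E2f5 bind DNA. Its RNA averaged 202, 151 and 110 CPM with Kdm5c siRNA, against 233, 165 and 108 CPM with scramble. Between siRNAs Tfdp1 was lower on days −2 and −1, by −0.20 and −0.12 (adjusted p = 2.39e-06 and 0.00136). E2f6, a repressor without a pocket protein site, was higher on all 3 days, by 0.25, 0.30 and 0.16 (adjusted p = 1.12e-05, 3.19e-07 and 0.00428). In all, 1 of the list was higher and 1 lower on day −2, 4 higher and 1 lower on day −1, and 4 higher and 0 lower on day 0. The 1 of 10 in either direction on day −2 is near the shares of all genes, 11.3% higher and 11.9% lower, which were 18.8 and 16.8% on day −1 and 19.3 and 16.2% on day 0. The 4 higher on day −1 were 2 without scramble replicate 2, without Kdm5c siRNA replicate 5, or without scramble replicates 1, 2 and 3 together.

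Among 10 corepressors that bind pocket proteins, 4 rose and 5 fell between day −2 and day 0 with either siRNA, the median being −0.15 with Kdm5c siRNA and −0.16 with scramble, which is close to the shares of all genes (43.8% higher and 43.6% lower with Kdm5c siRNA, 44.6 and 43.6% with scramble). Kdm5a, a relative of Kdm5c that was first found as a protein bound to the retinoblastoma protein, rose by 0.48 with Kdm5c siRNA and by 0.57 with scramble. Suv39h1, a histone H3 lysine 9 methyltransferase, fell by 1.08 and 1.42. Between siRNAs 2 were higher and 0 lower on each day, or 1 higher on day −2 without Kdm5c siRNA replicate 2 and 1 on day 0 without Kdm5c siRNA replicate 1. Of all genes 11.3, 18.8 and 19.3% were higher on days −2, −1 and 0, so the 2 of 10 on days −1 and 0 are near the share of all genes. Kdm5a was higher on days −2 and −1, by 0.10 each (adjusted p = 0.00136 and 0.000814), and Suv39h1 on days −1 and 0, by 0.20 and 0.36 (adjusted p = 9.77e-05 and 6.4e-08).

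Across the 30 libraries, the genes most like each member were named by Pearson's r of log2(CPM + 0.5). The libraries share the 3 days, so these r describe the time course and carry no test. E2f7 was most like Ect2, Cobll1 and Kif23, each at 0.996, of which Ect2 and Kif23 are known in cytokinesis. E2f8 was most like Dnmt1 (0.992), Cdc45 (0.991) and Tpx2 (0.989). E2f1 stood nearest to Ybx3 (0.984), Ncln (0.983) and Larp1 (0.982), and E2f3 to Mast2 (0.987), Inppl1 (0.986) and Ybx3 (0.986). For E2f4 the nearest were Sf3a2 (0.992), Ppan (0.991) and Pprc1 (0.990), and for E2f5 Tmem123 (0.979), Kcmf1 (0.976) and Igf2bp1 (0.972).

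E2f2 had the loosest match among the E2F genes, with Coq7 (0.898), Slbp (0.894) and Mrpl40 (0.889). Of the pocket protein genes, Rb1 was most like Foxo3 (0.972), Zcchc24 (0.972) and Mr1 (0.971), and Rbl2 most like Ivd (0.985), Dcxr (0.985) and Agtrap (0.984). Rbl1 was most like Lgals3 (0.950), Lmna (0.945) and Pds5b (0.940). Among the members, E2f7 and E2f8 had an r of 0.975 and E2f1 and E2f3 one of 0.974. Rb1 and Rbl2 were at 0.920, while Rbl1 and Rbl2 were at −0.378.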

How the data were processed

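Each library was made with a strand-specific mRNA kit (NuGEN Universal plus mRNA-Seq), per the labels' protocols. STAR 2.7.2a, edgeR 3.26.8 and GRCm38 appear in the submitters' processing notes, with no role or order. Which program counted reads, on which strand and against which annotation, is not given in the sources used here. CPM values for 55573 genes, deposited by the authors, were read counts over library totals, whole to within 0.05 reads in 100.0% of nonzero cases. The authors also deposited raw counts for 12016 genes, those reaching 1 CPM in 20 or more libraries, which equalled the recovered reads in 100.0% of values and held 99.73 to 99.8% of each library. Symbols, coordinates and merged exon lengths came from GENCODE release M21. CPM values are printed as deposited.

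edgeR 4.0.16 (R 4.3.3) fitted a quasi-likelihood model with TMM factors (0.969 to 1.031) and 6 group means to the counts of all 30 libraries, with library totals as sizes and 24 residual degrees of freedom and a common biological coefficient of variation of 0.0367. Tests were two-sided, and p-values were adjusted over all genes tested by the Benjamini-Hochberg method. The fitting code was tested on simulated data. Single values were also set beside an exact permutation test of log2(CPM + 0.5). Intervals are 95% and, like the limit of 3 reads, cover only the spread or counting error of these libraries.

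The labels do not pair replicate numbers, and same-numbered libraries did not deviate together when all pairs of groups were pooled. Replicate numbers were therefore not used as pairs. The members, the lists, the libraries left out together and the naming rule were chosen with earlier results of these data known. By that rule all 10 members and Kdm5c were named, up to 3 called genes of a list per comparison with the smallest adjusted p, and the 3 genes most like each member among genes that averaged 2 CPM or more. Other genes of a list given in a later or earlier comparison, and the genes that overlap members, were chosen after their values were seen. The values of 1 listed gene are not reported here. Alternatives were limma 3.58.1 on log2 CPM with pseudocounts of 0.1, 0.5 and 2, DESeq2 1.42.0, the reads recovered from the CPM table with edgeR's low-count filter (15135 genes), no filter (32318 genes), 5 CPM or more in 5 libraries (10659 genes, without E2f2), other scaling factors, a replicate block, only the libraries of a contrast, and each library left out.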

Additional observations from a re-analysis of the deposited data

Results flagged for a closer look

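Within groups of 5 libraries, 2 of the 60 combinations of member and group held a library far from the other 4, both of them for E2f3, where chance sets apart about 1 in 20. In Kdm5c siRNA cells on day −1, replicate 2 was highest at 39.4 CPM, and its gap to the next library was 0.847 of the group's range. In Kdm5c siRNA cells on day 0, replicate 5 was lowest at 28.5 CPM, with a gap of 0.728. The limit for 5 libraries is 0.71. Without the first of these libraries E2f3 became a call on day −1, at a log2 fold change of −0.10 (adjusted p = 0.03).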

How the results depend on the processing

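No log2 fold change of a member that was called changed sign under any alternative. With edgeR's test, leaving out 1 library at a time gave 4 to 5 members called on day −2 (5 with all libraries), 4 to 5 on day −1 (4) and 4 to 5 on day 0 (4). For the change of the siRNA difference from day −2 to day 0 it gave 0 to 3 members (0 with all libraries), and for both other such tests 0. In the time comparisons 8 to 10 members were called under these fits. Without day −1 scramble replicates 1, 2 and 3 together, 1 member, Rbl1, was called on day −1 in place of 4; this fit has fewer samples. The count for the change from day −2 to day 0 was 1 with no filter, 1 with DESeq2 and 1 with the replicate block, E2f8 each time, and the cause was not tested. The block changed no other count of members. Same-numbered libraries had a median correlation of −0.02 in their deviations (75 pairs, 11 over 0.1), against 0.002 for other pairs (300 pairs, 58 over 0.1). These values pool all pairs of groups, so whether same-numbered libraries of the same day shared a culture was not tested. Between siRNAs 4272 of all genes were called on day −1, and 2568 without those 3 scramble libraries. A changed siRNA difference from day −2 to day −1 was called for 428 genes, or 174 without them and 754 with no filter, and one from day −1 to day 0 for 705 genes, or 447 without them. With no scaling factors or with limma, 60.6 and 60.9% of the genes called between day −2 and day −1 in Kdm5c siRNA cells were higher, against 49.8% with TMM factors. No scaling moved the median of all genes by more than 0.078 on the log2 scale. Depth limits E2f2 most, which had 2 to 5 CPM and was not tested under the stricter filter.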
